A study of Homo sapiens with 24 samples.

Results

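The genes described here are 43 genes of the G2 phase and mitosis, followed one by one through both cell lines, both siRNA pools and both treatments. They were taken from a list of gene symbols that was chosen with earlier results of these data known. All 43 were found among the 60675 genes of the count tables. They fall into 8 role groups. These are CDK1 with its cyclins and activators, the Aurora and Polo kinases with the chromosomal passenger complex and TPX2, the spindle checkpoint and the anaphase switch. The others are mitotic motors, the kinetochore, the spindle and midbody, and chromosome organisation.

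Entry into mitosis is driven by CDK1 bound to cyclin A or B, and is followed by the Polo and Aurora kinases, which build the spindle and correct faulty attachments. Kinetochore proteins join chromosomes to microtubules, the spindle checkpoint holds the anaphase-promoting complex back until all are attached, and separase then frees the sister chromatids. Most of these genes are transcribed late in the cell cycle under FOXM1, B-MYB and the MuvB complex and are low in resting cells, which is why they serve as markers of proliferation.

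The study knocked down METTL3, the catalytic subunit of the m6A RNA methyltransferase, in LNCaP:C4-2, a castration-resistant derivative of the LNCaP prostate cancer line, and in 22Rv1, a prostate cancer line that also makes androgen receptor variants. Cells grew in phenol red-free medium with charcoal-stripped serum, which is low in steroids, and were transfected with pooled siRNAs, which either targeted METTL3 (siMETTL3) or had no target (siSCR). A second transfection came 48 h after the first, together with ethanol (vehicle) or the synthetic androgen R1881 at 1 nM for 72 h. Each of the 8 groups had 3 RNA-seq libraries, 24 in all. The comparisons address the effects of androgen and of METTL3 on gene expression and whether they depend on each other. Each line is 1 cell line, the sources used here do not say whether libraries came from separate cultures, and p-values measure the spread between these libraries only.

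Libraries held between 15716224 and 21306019 counted fragments, and the mitotic genes took between 0.296% and 0.551% of them. The lowest count of any mitotic gene in any library was 213 and the highest 7973. Levels are given as CPM (counts relative to the size of the library, with TMM factors within a line) where 1 gene is followed, and as TPM (counts per gene length, scaled to a fixed total per library) where genes are compared. METTL3 was lower in all 3 siMETTL3 libraries than in all 3 siSCR libraries in each line and treatment, with log2 fold changes from −0.57 to −1.18. In each case the exact two-sided permutation p was 0.1, the smallest that 3 against 3 libraries can give. All 8 prostate luminal markers were above 1 CPM in every library of both lines, whereas none of 5 leukocyte markers was. Of 5 fibroblast markers 2 were above 1 CPM in every library of each line, COL1A1 with PDGFRB in LNCaP:C4-2 and COL1A1 with LUM in 22Rv1, and their summed level over the list ran from 38.2 to 69.1 and from 17.6 to 35.4 CPM. Of 4 endothelial markers VWF was above it in LNCaP:C4-2. In LNCaP:C4-2, replicate 1 of siSCR with R1881 and replicate 1 of siMETTL3 in vehicle stood apart from the other libraries of their groups. Their counts differed from those libraries with a chi-square per degree of freedom between 27.2 and 37.2, against 2.14 to 15.8 in all other pairs of replicates. The share of counts on mitochondrial genes was 7.08% in the first, against 9.73% and 9.69% in its group, and 9.60% in the second, against 6.89% and 7.03%. Over all libraries it ran from 3.93% to 9.73%, and in 22Rv1 it was lower in every R1881 library than in every vehicle library of the same siRNA pool. Its part in the results was not tested.

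The stretches just before the transcription start are shown for 10 of the genes because the cell cycle genes homology region, CHR, and CCAAT boxes in this place are the known binding letters of the MuvB complex and of NF-Y. RefSeq windows on GRCh38.p14, from 250 bases before to 50 after the start, were at hand for 36 of the 43 genes (46 windows), and for all except FOXM1, AURKA, BIRC5, TPX2, BUB3, TTK and UBE2C. CHR was searched as TTTGAA, its reverse TTCAAA and TTCGAA, and CCAAT as CCAAT and its reverse ATTGG. The last 100 bases before the start follow, with the letters of either motif in capitals. The first 6 genes are those called lower with R1881 in LNCaP:C4-2, and the last 4 were not called there.
AURKB: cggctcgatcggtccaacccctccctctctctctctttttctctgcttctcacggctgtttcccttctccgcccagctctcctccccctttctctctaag
ESPL1: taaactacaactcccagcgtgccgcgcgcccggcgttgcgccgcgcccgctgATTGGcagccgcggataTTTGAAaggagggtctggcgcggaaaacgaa
CENPA: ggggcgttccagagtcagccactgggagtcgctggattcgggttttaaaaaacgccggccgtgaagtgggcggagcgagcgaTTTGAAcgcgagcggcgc
CDC20: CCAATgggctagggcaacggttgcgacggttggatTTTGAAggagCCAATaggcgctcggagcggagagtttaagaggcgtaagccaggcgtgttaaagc
PLK1: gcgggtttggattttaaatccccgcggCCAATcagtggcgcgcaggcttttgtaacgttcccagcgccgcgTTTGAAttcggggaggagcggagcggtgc
TOP2A: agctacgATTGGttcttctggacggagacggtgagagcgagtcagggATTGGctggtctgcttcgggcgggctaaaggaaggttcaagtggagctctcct
CCNB2: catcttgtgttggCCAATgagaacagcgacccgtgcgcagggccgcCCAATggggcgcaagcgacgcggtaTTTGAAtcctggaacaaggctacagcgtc
PRC1: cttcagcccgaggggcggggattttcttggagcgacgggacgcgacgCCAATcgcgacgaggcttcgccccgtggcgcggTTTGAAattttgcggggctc
MKI67: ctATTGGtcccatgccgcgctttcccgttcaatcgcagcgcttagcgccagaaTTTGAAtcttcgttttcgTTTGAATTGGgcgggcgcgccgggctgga
HMMR: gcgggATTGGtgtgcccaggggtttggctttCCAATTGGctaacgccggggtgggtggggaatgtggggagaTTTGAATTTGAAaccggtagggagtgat
These stretches lie, in GRCh38 coordinates, as AURKB at chr17:8210226-8210325 (minus strand), ESPL1 at chr12:53268199-53268298 (plus strand), CENPA at chr2:26785956-26786055 (plus strand), CDC20 at chr1:43358881-43358980 (plus strand), PLK1 at chr16:23678789-23678888 (plus strand). The others are TOP2A at chr17:40417897-40417996 (minus strand), CCNB2 at chr15:59105046-59105145 (plus strand), PRC1 at chr15:90994536-90994635 (minus strand), MKI67 at chr10:128126424-128126523 (minus strand) and HMMR at chr5:163460532-163460631 (plus strand). Each ends 1 base before the RefSeq start of its window. The gene models used for counting hold further starts, and only the stretches of ESPL1 and MKI67 lie wholly outside the gene in them.

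A CHR was present in 32 of the 46 windows of mitotic genes (69.6%), against 16.4% of all 35116 windows of that length in the RefSeq table. CCAAT letters were present in 76.1% of the mitotic windows and in 34.6% of all windows. Within the last 50 bases before the start, a CHR stood in 39.1% of the mitotic windows and in 2.73% of all windows. In PLK1 and CCNB2 it began 29 bases before the start, in ESPL1 31 bases, in PRC1 20 bases and in CENPA 18 bases. HMMR held 2 CHR copies side by side, at 28 and 22 bases, and MKI67 held 2 as well, of which the nearer overlaps an ATTGG. AURKB had no CHR in its window, and those of TOP2A lay further out, 194 and 151 bases before the start. Counted by gene, a CHR was present in 80.6% of the 36 mitotic genes with a window and in 19.5% of all genes with one. Of the other 97 genes of mitosis and G2/M control with a window, 51.5% had a CHR. Among the mitotic genes called lower with R1881 in LNCaP:C4-2 it was 5 of 6 genes with a window, and among the others 24 of 30. A match of letters is a description of the sequence and shows no binding.

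Per length, CKS2, a small CDK-binding protein, was the most abundant of the 43 transcripts, with a mean of 403 TPM over the 24 libraries and a range from 306 to 523. CCNB1, cyclin B1, had a mean of 236 TPM, CDC20, the activator of the anaphase-promoting complex, 209 TPM, and CDK1 194 TPM. The lowest were CENPE, a kinetochore motor, with a mean of 22.8 TPM, and CDC25C, a phosphatase that activates CDK1, with 23.9 TPM. ASPM, a spindle pole protein, was last in LNCaP:C4-2 with siSCR in vehicle at 19 TPM, but at 45.9 TPM in the same condition of 22Rv1.

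**Figure D1:**
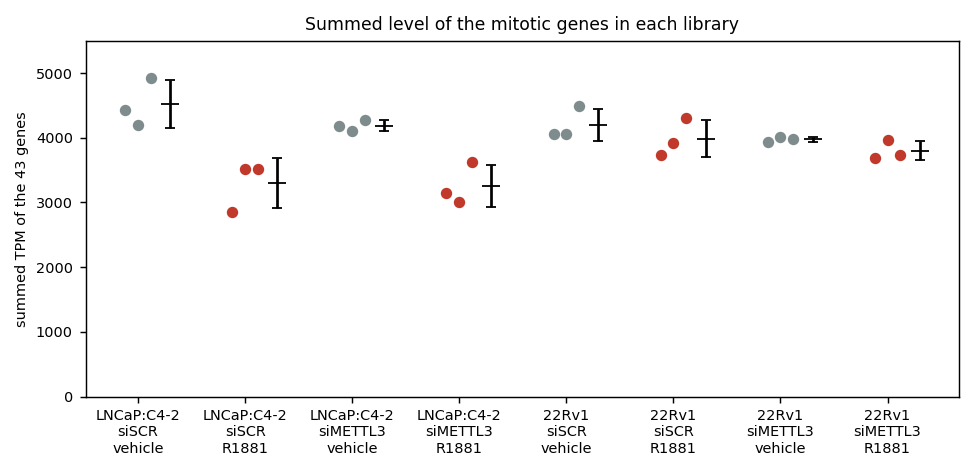
Summed TPM of the 43 mitotic genes (y axis) in each of the 24 libraries (points), by group (x axis), grey for vehicle and red for R1881, with the group mean and SD at the right of each group. In LNCaP:C4-2 every R1881 library lies below every vehicle library of the same siRNA pool, while in 22Rv1 the groups overlap.

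Summed over the 43 genes, the level was lower with R1881 in LNCaP:C4-2 and closer to vehicle in 22Rv1. In LNCaP:C4-2 with siSCR the 3 vehicle libraries had summed levels of 4427, 4200 and 4923 TPM, and the 3 R1881 libraries 2850, 3521 and 3517 TPM. The means were 4517 ± 370 and 3296 ± 386 TPM (SD, n = 3), a difference of −27.0%, and of −22.1% without the R1881 library that stood apart. With siMETTL3 the vehicle libraries had 4180, 4108 and 4277 TPM and the R1881 libraries 3147, 3008 and 3620 TPM, a difference of −22.2%. The groups did not overlap in either case. In 22Rv1 the differences were −5.12% with siSCR and −4.46% with siMETTL3, and the groups overlapped in summed TPM. The siSCR value ran from −8.93% without R1881 replicate 3 to −1.73% without vehicle replicate 3, and was also smaller by over 1.5 times without R1881 replicate 1. The siMETTL3 value was −8.10% without the 3 most abundant genes and −6.96% by summed CPM. By both of these measures every R1881 library lay below every vehicle library, so the overlap with siMETTL3 depended on the measure. No test was made on this sum, since the genes were chosen with results known. A smaller share of dividing cells and less RNA of these genes per cell cannot be told apart in bulk RNA.

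Androgen in LNCaP:C4-2 with siSCR gave the most calls among the R1881 and knockdown comparisons: 9 of the 43 mitotic genes were called lower and none higher, where a call needs a change of at least 1.5-fold and a Benjamini-Hochberg adjusted p under 0.05, over all genes, by the quasi-likelihood test of edgeR. This is 20.9% of them, against 7.72% of all 16435 genes called lower and 7.39% called higher. Of the 43 genes, 41 had a log2 fold change below 0, with a median of −0.34 where the median of all genes was −0.03. On the adjusted p alone 21 were lower, against 12.1% of all genes.

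In the group of the Polo and Aurora kinases, the chromosomal passenger complex and TPX2, all 7 genes were lower on the adjusted p alone, and 3 were called. AURKB, the Aurora B kinase that corrects kinetochore attachments, had 48.4, 44.8 and 46.7 CPM in vehicle and 24.3, 25.2 and 26.7 CPM with R1881, and the groups lay far apart. Its log2 fold change was −0.88 (SE 0.16, edgeR adjusted p = 0.000796). PLK1, the Polo kinase of mitotic entry and spindle assembly, had 105, 95.8 and 102 CPM against 65.8, 61.9 and 66.0 CPM, a log2 fold change of −0.64 (SE 0.12, edgeR adjusted p = 0.000971). BIRC5, survivin, which targets the complex to centromeres, had 191, 198 and 208 CPM against 117, 135 and 136 CPM and a log2 fold change of −0.62 (SE 0.11, edgeR adjusted p = 0.000893). In all 3 genes every R1881 library lay below every vehicle library. AURKA, the Aurora A kinase of the spindle poles, passed the adjusted p with a log2 fold change of −0.29 (SE 0.09, edgeR adjusted p = 0.0206), from 99.4 ± 7.55 to 81.1 ± 2.25 CPM (SD, n = 3).

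At the anaphase switch 3 of 4 genes were called. ESPL1, separase, which cuts the cohesin that holds sister chromatids, had 81.0, 79.5 and 79.3 CPM in vehicle and 35.1, 49.7 and 46.8 CPM with R1881 (log2 fold change −0.87, SE 0.16, edgeR adjusted p = 0.00113). UBE2C, the ubiquitin-conjugating enzyme of the anaphase-promoting complex, had 84.9, 80.0 and 89.6 CPM against 49.1, 58.0 and 54.8 CPM (log2 fold change −0.65, SE 0.10, edgeR adjusted p = 0.000237). CDC20 had 178, 169 and 171 CPM against 115, 108 and 110 CPM, a log2 fold change of −0.64 (SE 0.12, edgeR adjusted p = 0.00117). No library of one treatment reached the range of the other in these 3 genes. PTTG1, securin, the inhibitor of separase, did not pass the test.

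Of the 8 genes around CDK1 only FOXM1, the transcription factor of the G2/M programme, was called. Its levels were 215, 201 and 221 CPM in vehicle and 128, 125 and 131 CPM with R1881, with no overlap and a log2 fold change of −0.73 (SE 0.11, edgeR adjusted p = 0.000172). Counting did not use strand, and 15.9% of the exon bases of FOXM1 and 12.9% of those of PLK1 overlap genes on the opposite strand, whose reads cannot be told apart there. CCNB1 passed the adjusted p at a log2 fold change of −0.38 (SE 0.13, edgeR adjusted p = 0.0457), as did CCNB2 and CDC25B. Without the R1881 library that stood apart CCNB1 had −0.24 and did not pass (edgeR adjusted p = 0.169). CDK1 itself had 331, 310 and 374 CPM in vehicle and 250, 358 and 356 CPM with R1881, so that the groups overlapped, and its log2 fold change of −0.07 (SE 0.14) was 0.09 without replicate 1 of the R1881 libraries.

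CENPA, the histone H3 variant that marks centromeres, was the one kinetochore gene called, with 24.7, 25.6 and 24.6 CPM in vehicle and 16.7, 13 and 15.2 CPM with R1881 (log2 fold change −0.74, SE 0.12, edgeR adjusted p = 0.000366). TOP2A, topoisomerase II alpha, which untangles sister chromatids, had 225, 236 and 287 CPM against 116, 190 and 192 CPM. Its log2 fold change was −0.59 (SE 0.18, edgeR adjusted p = 0.0227), and the lowest R1881 library was the one that stood apart, without which it was −0.38 (SE 0.14, edgeR adjusted p = 0.0721). MKI67, the proliferation marker Ki-67, passed the adjusted p at −0.40 (SE 0.11, edgeR adjusted p = 0.0177), from 172 ± 21.7 to 131 ± 15.3 CPM (SD, n = 3). PRC1, which bundles the microtubules of the spindle midzone, was just short of the 1.5-fold threshold, at a log2 fold change of −0.58 (SE 0.09, edgeR adjusted p = 0.000201). No checkpoint gene and no motor was called, and 1 of 5 and 2 of 5 passed the adjusted p. TTK, the MPS1 checkpoint kinase, and HMMR, a spindle assembly protein, were the only genes with a log2 fold change above 0, at 0.10 (SE 0.22) and 0.02 (SE 0.17). Neither passed the test, and both were below 0 when counts were scaled by library size alone. Without the R1881 library that stood apart they were 0.36 (SE 0.17, edgeR adjusted p = 0.139) and 0.23 (SE 0.14, edgeR adjusted p = 0.265), and without both libraries TTK passed the adjusted p (0.36, SE 0.12, edgeR adjusted p = 0.0233).

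Without the R1881 library that stood apart, 6 of the 9 remained called and BIRC5, TOP2A and UBE2C did not. The median was then −0.24, and 38 of the 43 genes were below 0. With a fold threshold of 1.5 inside the test none was called, which asks for a change shown to exceed 1.5-fold.

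**Figure D2:**
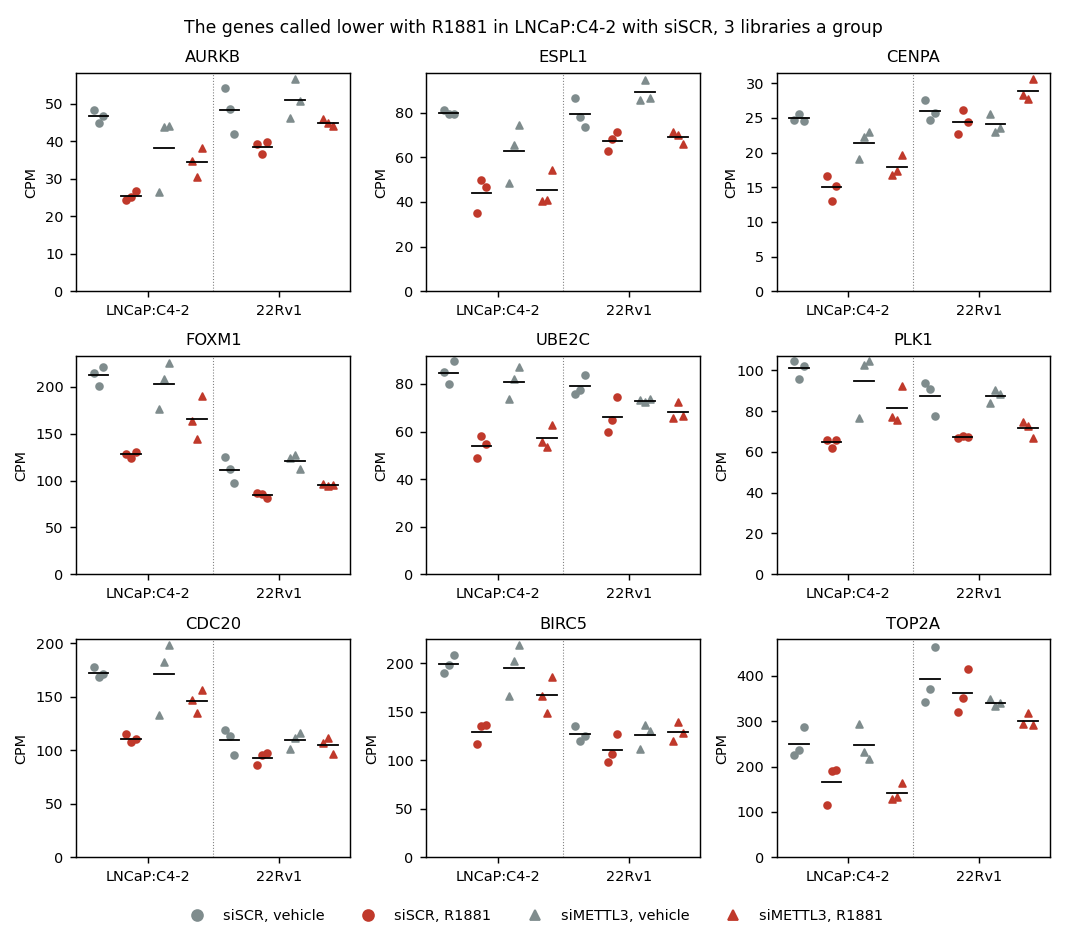
CPM (y axis, from 0) of the 9 genes called lower with R1881 in LNCaP:C4-2 with siSCR, in every library of both lines (points, circles for siSCR and triangles for siMETTL3, grey for vehicle and red for R1881) with the group mean as a bar. In LNCaP:C4-2 with siSCR the 3 red points lie below the 3 grey points in all 9 genes, which this same comparison picked. Of all 43 mitotic genes 27 lay so, and the share over all genes was not counted. In siMETTL3 in vehicle 1 library lies low in AURKB, ESPL1, PLK1 and CDC20.

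With siMETTL3, the same treatment of LNCaP:C4-2 gave log2 fold changes below 0 in all 43 mitotic genes, with a median of −0.37 (all genes 0.00), but only TOP2A was called, 1 of 43 against 5.54% of all genes called lower, and none higher against 5.09%. TOP2A had 293, 232 and 217 CPM in vehicle and 129, 133 and 164 CPM with R1881, a log2 fold change of −0.80 (SE 0.18, edgeR adjusted p = 0.00483). On the adjusted p alone 10 genes were lower, against 8.09% of all genes. They were CCNB2, TPX2, UBE2C, NUSAP1, PRC1, DLGAP5, TOP2A and the motors KIF11, KIF2C and KIF4A. That is 3 of 5 motors and 3 of 7 spindle genes, but 1 of the 7 genes grouped with the kinases, which was TPX2. UBE2C had a log2 fold change of −0.50 (SE 0.10, edgeR adjusted p = 0.00283). FOXM1 had −0.29 (SE 0.11, edgeR adjusted p = 0.0838), CCNB1 −0.39 (SE 0.13, edgeR adjusted p = 0.0574) and MKI67 −0.32 (SE 0.11, edgeR adjusted p = 0.0626). These comparisons with siSCR and siMETTL3 share no library. In the same direction 7 mitotic genes passed the adjusted p in both, 7 of the 21 with siSCR and 7 of the 10 with siMETTL3. How many of all genes passed with both pools was not counted.

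In AURKB the siMETTL3 vehicle libraries had 26.6, 43.9 and 44.2 CPM and the R1881 libraries 34.7, 30.5 and 38.3 CPM. The low vehicle library is the one that stood apart, and it was the lowest of its group in FOXM1, PLK1, BIRC5, CDC20, ESPL1 and CENPA too, but the highest in TOP2A, TTK, HMMR and CENPE. Without both libraries that stood apart, ESPL1 joined TOP2A, so that 2 genes were called. Leaving out replicate 3 of siMETTL3 with R1881 raised the count to 5, and leaving out replicate 1 or replicate 3 of siMETTL3 in vehicle to 2.

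Whether the androgen effect depended on METTL3 was tested as the interaction of R1881 and siMETTL3, where a gene passed on the adjusted p alone. No mitotic gene passed it in LNCaP:C4-2 by edgeR or by DESeq2, nor did any of the 16435 genes by edgeR (0%). An unadjusted p under 0.05 was found in 2037 of the 16435 genes and in 7 of the 43 mitotic genes. These 7, named after their values were seen, were FOXM1, PLK1, AURKA, AURKB, BIRC5, CDC20 and CENPA. AURKB had the largest value, a log2 difference of 0.73 between the R1881 effects with siMETTL3 and with siSCR (SE 0.22, edgeR adjusted p = 0.314). It passed with no filter on low counts. In 22Rv1 no mitotic gene passed the interaction by either tool (0.0168% of all genes by edgeR). There 3 mitotic genes had an unadjusted p under 0.05, against 1101 of all 17865 genes.

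**Figure D3:**
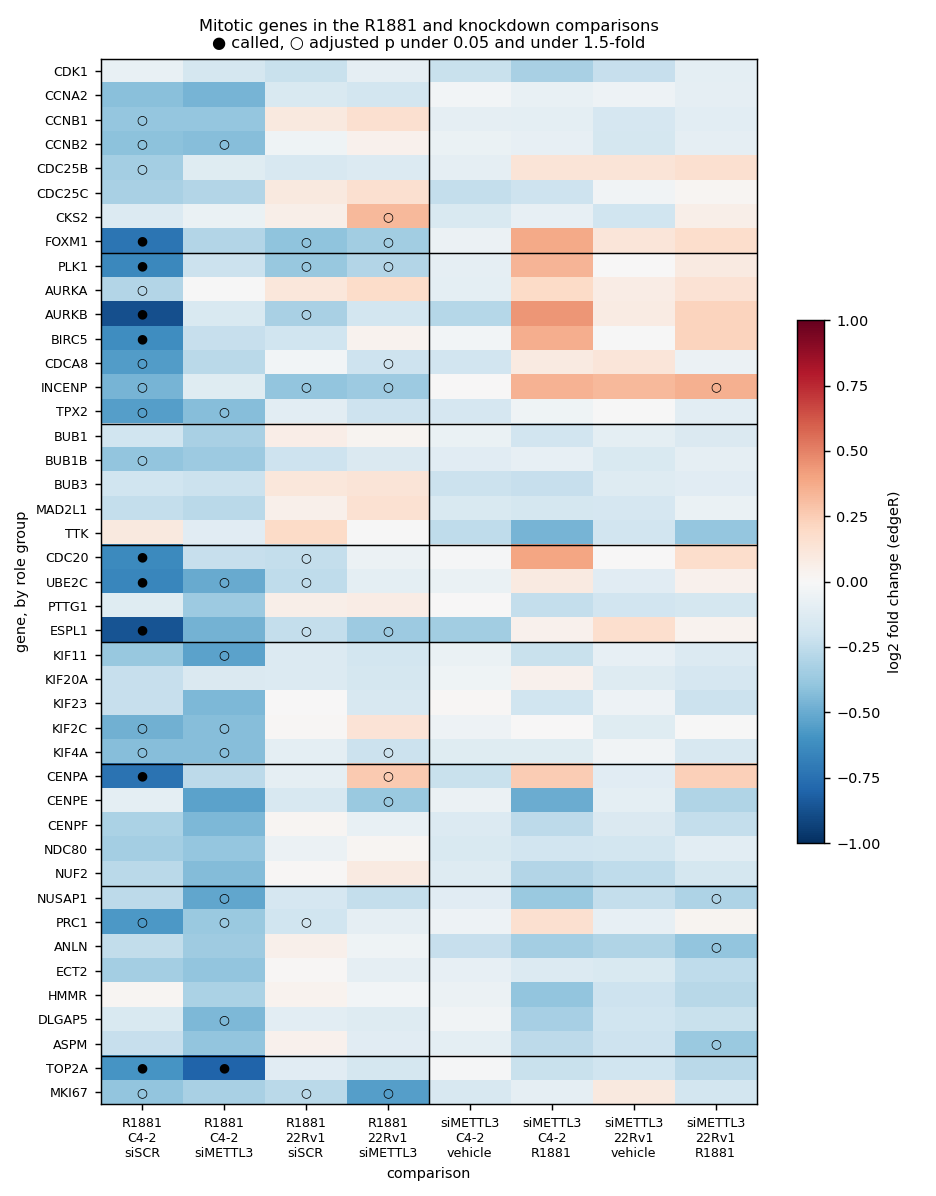
Log2 fold change (colour, blue lower and red higher) of the 43 mitotic genes (rows, divided by role group) in the 4 R1881 comparisons (left) and the 4 knockdown comparisons (right). Filled circles mark the 9 and 1 genes called in LNCaP:C4-2, open circles an adjusted p under 0.05 with less than 1.5-fold, and the first 2 columns are blue in nearly all rows.

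In 22Rv1, R1881 called no mitotic gene with either siRNA pool by edgeR or DESeq2, against 13.8% and 13.5% of all 17865 genes called by edgeR. With siSCR 13 mitotic genes had an unadjusted p under 0.05 (7617 of all genes did), and with siMETTL3 13 (7542 of all genes). The medians were −0.09 in both, and those of all genes 0.00. With siSCR it was 0.00 without vehicle replicate 3. On the adjusted p alone 9 genes were lower with siSCR (16.5% of all genes were): FOXM1, PLK1, AURKB, INCENP, CDC20, UBE2C, ESPL1, PRC1 and MKI67. All 9 also passed it, in the same direction, in LNCaP:C4-2 with siSCR, where 21 did. How many of all genes passed in both lines was not counted.

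FOXM1 in 22Rv1 with siSCR had 125, 113 and 96.9 CPM in vehicle and 86.2, 86.0 and 81.2 CPM with R1881, a log2 fold change of −0.40 (SE 0.08, edgeR adjusted p = 0.000824), without overlap. PLK1 had 93.8, 90.7 and 77.4 CPM against 66.8, 67.6 and 67.2 CPM (log2 fold change −0.38, SE 0.08, edgeR adjusted p = 0.000944). INCENP, the scaffold of the passenger complex, had a log2 fold change of −0.39 (SE 0.10, edgeR adjusted p = 0.00393), UBE2C −0.25 (SE 0.08, edgeR adjusted p = 0.0215) and MKI67 −0.27 (SE 0.08, edgeR adjusted p = 0.0093).

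With siMETTL3 in 22Rv1, 8 genes were lower and 2 higher on the adjusted p alone, where 16.3% and 16.8% of all genes were. MKI67 was lowest, with 292, 268 and 231 CPM in vehicle and 181, 181 and 177 CPM with R1881 (log2 fold change −0.55, SE 0.08, edgeR adjusted p = 8.65e-06), the nearest of any mitotic gene to the fold threshold in this line. It was called when replicate 3 in vehicle was left out. FOXM1 had −0.35 (SE 0.08, edgeR adjusted p = 0.00262) and PLK1 −0.29 (SE 0.08, edgeR adjusted p = 0.00713). CKS2 and CENPA went the other way. CKS2 had 54.4, 58.8 and 57.1 CPM in vehicle against 74.6, 73.5 and 65.6 CPM (log2 fold change 0.33, SE 0.09, edgeR adjusted p = 0.00651), and CENPA a log2 fold change of 0.26 (SE 0.09, edgeR adjusted p = 0.0297).

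The R1881 response was then compared between the lines in a fit of all 24 libraries, with calls on the adjusted p alone. With siSCR the response of 9 mitotic genes differed, all less negative or more positive in 22Rv1, against 7.78% of all 19437 genes in that direction and 9.02% in the other. With siMETTL3 it was 10, again all in that direction, against 8.45% and 6.83%. The median difference, 22Rv1 minus LNCaP:C4-2, was 0.29 and 0.32, and that of all genes 0.03 and 0.05. Without both libraries that stood apart the medians of the mitotic genes were 0.08 and 0.16. These comparisons share no library, and 5 genes were called in both, 5 of the 9 and 5 of the 10: CCNB1, UBE2C, KIF2C, CENPA and PRC1. How many of all genes were called in both was not counted.

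KIF2C, a motor that takes microtubules apart at kinetochores, had 83.5, 82.3 and 91.3 CPM in vehicle and 54.2, 68.5 and 61.6 CPM with R1881 in LNCaP:C4-2 with siSCR, but 82.8, 88.4 and 86.1 against 82.9, 83.3 and 93.2 CPM in 22Rv1. The groups were apart in the first line and overlapped in the second. The difference was 0.49 (SE 0.12, edgeR adjusted p = 0.00549) with siSCR and 0.60 (SE 0.12, edgeR adjusted p = 0.00107) with siMETTL3. CENPA differed by 0.64 (SE 0.15, edgeR adjusted p = 0.00293) and 0.56 (SE 0.15, edgeR adjusted p = 0.00995). CCNB1 had 211, 207 and 253 CPM against 137, 188 and 190 CPM in LNCaP:C4-2, and 152, 165 and 193 against 170, 176 and 201 CPM in 22Rv1, a difference of 0.48 (SE 0.16, edgeR adjusted p = 0.041).

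The others of the largest differences with siSCR were ESPL1 at 0.63 (SE 0.18, edgeR adjusted p = 0.0161), AURKB at 0.55 (SE 0.19, edgeR adjusted p = 0.0428) and CDCA8, borealin of the passenger complex, at 0.53 (SE 0.13, edgeR adjusted p = 0.00407). With siMETTL3 they were TOP2A at 0.66 (SE 0.21, edgeR adjusted p = 0.034), CCNB1 at 0.59 (SE 0.16, edgeR adjusted p = 0.0129), NUF2, a subunit of the NDC80 complex, at 0.56 (SE 0.19, edgeR adjusted p = 0.0448) and CCNB2 at 0.51 (SE 0.13, edgeR adjusted p = 0.00957). FOXM1, PLK1 and MKI67, which with siSCR were lower in both lines on the adjusted p, passed the test of the difference with neither pool. With an offset for GC content 20 mitotic genes were called with siSCR, FOXM1 and PLK1 among them. That offset also raised the number of all 19437 genes called in this direction, from 1513 to 2677.

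Without both LNCaP:C4-2 libraries that stood apart, 6 genes were called with siSCR (5 of the 9, and CDC20) and 7 with siMETTL3. With siSCR the count was 4 and 5 without replicates 1 and 3 of LNCaP:C4-2 in vehicle, 2 and 4 without its R1881 replicates 1 and 2, 4 without 22Rv1 vehicle replicate 3 and 2 without 22Rv1 R1881 replicate 3. With siMETTL3 it was 3 without either of LNCaP:C4-2 vehicle replicates 1 and 2, 1 without either of its R1881 replicates 1 and 2, 6, 1 and 2 without 22Rv1 vehicle replicates 1, 2 and 3, and 4 and 6 without 22Rv1 R1881 replicates 2 and 3.

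**Figure D4:**
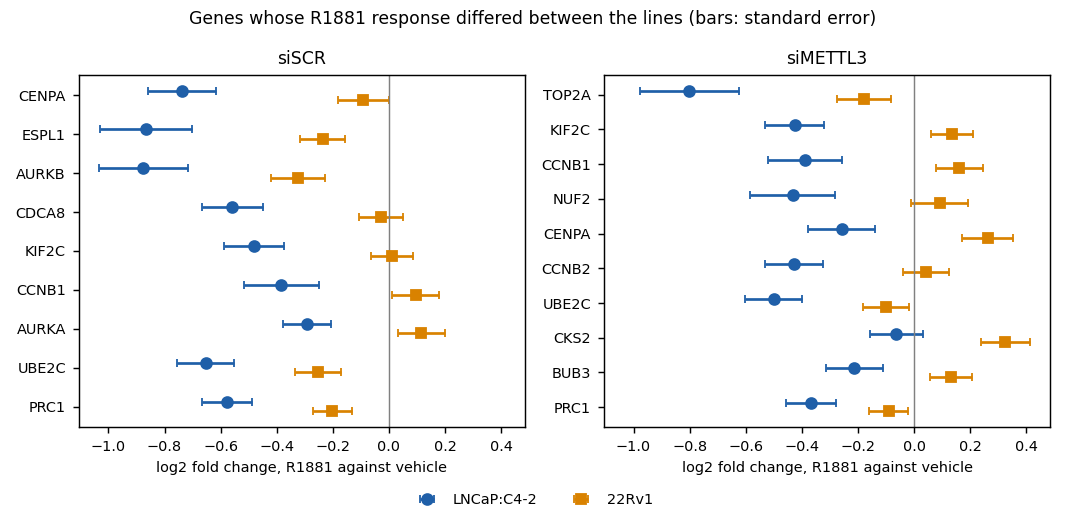
Log2 fold change of R1881 against vehicle (x axis, bars are standard errors) in LNCaP:C4-2 (blue circles) and 22Rv1 (orange squares), for the 9 genes with siSCR (left) and the 10 with siMETTL3 (right) whose response differed between the lines. All LNCaP:C4-2 points lie below 0 and left of the 22Rv1 points, CKS2 with siMETTL3 nearest to 0 at −0.06.

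The knockdown itself called no mitotic gene in any of the 4 comparisons by edgeR or DESeq2. Of all genes, edgeR called 1.2% in LNCaP:C4-2 in vehicle and 0.7% with R1881, and 0.202% and 3.29% in 22Rv1. The mitotic genes with an unadjusted p under 0.05 numbered 1, 13, 9 and 15 in the same order. Of all genes it was 2636 and 4702 of 16435 in LNCaP:C4-2, and 2604 and 5712 of 17865 in 22Rv1. The median log2 fold changes of the 43 mitotic genes were −0.09, −0.10, −0.11 and −0.10, and those of all genes between −0.02 and 0.00. In LNCaP:C4-2 with R1881 the median was −0.26 without the siSCR library that stood apart and 0.03 with an offset for GC content. In LNCaP:C4-2 in vehicle it was −0.02 without siSCR replicate 3 and −0.16 without both libraries that stood apart. In 22Rv1 the offset gave −0.06 in vehicle and −0.03 with R1881, and leaving out siSCR replicate 3 gave −0.05 in vehicle and −0.03 with R1881. The widest values were −0.35 for ESPL1 and 0.01 for KIF23, a motor of the midzone, in LNCaP:C4-2 in vehicle, −0.49 for CENPE and 0.44 for AURKB with R1881, −0.30 for ANLN and 0.32 for INCENP in 22Rv1 in vehicle, and −0.39 and 0.35 for the same pair with R1881.

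On the adjusted p alone 4 genes passed, all in 22Rv1 with R1881, where 8.93% of all genes were higher and 7.28% lower. INCENP was higher (log2 fold change 0.35, SE 0.10, edgeR adjusted p = 0.0209). NUSAP1, a spindle microtubule protein, was lower at −0.31 (SE 0.10, edgeR adjusted p = 0.0364), ANLN, anillin of the contractile ring, at −0.39 (SE 0.10, edgeR adjusted p = 0.0163) and ASPM at −0.37 (SE 0.11, edgeR adjusted p = 0.0219). ANLN had 131, 142 and 168 CPM with siSCR and 108, 116 and 113 CPM with siMETTL3. With an offset for GC content INCENP was at 0.16, NUSAP1 at −0.20 and ASPM at −0.17, none of which passed (edgeR adjusted p = 0.139, 0.0591 and 0.0575), and ANLN at −0.23 passed (edgeR adjusted p = 0.0239). None of the 4 passed without siSCR replicate 3 or without siMETTL3 replicate 1.

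In LNCaP:C4-2 with R1881, 3 genes were called lower once the siSCR library that stood apart was left out, and these were TTK, HMMR and CENPE. TTK had 24.2, 48.2 and 44.9 CPM with siSCR, the first being that library, and 26.9, 25.7 and 32.4 CPM with siMETTL3. Its log2 fold change was −0.46 (SE 0.22, edgeR adjusted p = 0.176) with the library and −0.73 (SE 0.17, edgeR adjusted p = 0.0154) without it. HMMR moved from −0.40 to −0.61 and CENPE from −0.49 to −0.73. The difference of the knockdown effect between the lines passed in no mitotic gene by either tool. Of all genes 0.458% passed in vehicle and 0.0926% with R1881 by edgeR. An unadjusted p under 0.05 was found in 2 and 0 mitotic genes, against 2240 and 1469 of all 19437 genes.

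Between the lines themselves, with siSCR, 3 mitotic genes were called higher and 12 lower in 22Rv1 than in LNCaP:C4-2 in vehicle, where 31.2% and 27.9% of all genes were. With R1881 it was 7 and 7, against 32.6% and 27.5%. The share called, 34.9% and 32.6% of the 43, was below the 59.2% and 60.1% of all genes. In vehicle 4 of the 7 genes of the group with the kinases, passenger complex and TPX2 were called lower. So were 4 of the 8 genes around CDK1, and 2 of the 5 kinetochore genes were called higher. With R1881 the first group had 2 called lower, the second 2 lower and 1 higher, and the kinetochore genes again 2 higher.

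CDK1 had 353, 330 and 395 CPM in LNCaP:C4-2 in vehicle and 144, 157 and 201 CPM in 22Rv1, on the scale of all 24 libraries, far apart, with a log2 fold change of −1.10 (SE 0.14, edgeR adjusted p = 5e-08) in vehicle and −1.25 (SE 0.14, edgeR adjusted p = 5.2e-09) with R1881. FOXM1 had 229, 214 and 233 CPM against 115, 105 and 91.1 CPM (log2 fold change −1.12, SE 0.10, edgeR adjusted p = 9.21e-11). INCENP had 110, 115 and 109 CPM against 52.0, 46.0 and 43.1 CPM, at −1.25 in vehicle and −1.18 with R1881 (SE 0.12 in both). AURKA and the spindle gene DLGAP5 had log2 fold changes of −1.03 (SE 0.08) and −1.22 (SE 0.14) in vehicle. In vehicle with siSCR, CDK1, FOXM1 and INCENP were lower in every 22Rv1 library than in every LNCaP:C4-2 library.

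ASPM was the one spindle gene called higher, with 64.3, 59.5 and 75.5 CPM in LNCaP:C4-2 in vehicle and 119, 122 and 165 CPM in 22Rv1 (log2 fold change 1.02, SE 0.15, edgeR adjusted p = 8.75e-07), and 1.29 with R1881 (SE 0.15, edgeR adjusted p = 1.95e-08). CENPF and NUF2 of the kinetochore were at 1.05 (SE 0.14) and 0.97 (SE 0.13) with R1881, edgeR adjusted p = 1.1e-07 and 3.49e-07. Of these 3, ASPM in vehicle and CENPF and NUF2 with R1881 lost the call under an offset for GC content. That offset gave 0 higher and 17 lower calls in vehicle and 2 and 11 with R1881, and scaling by library size alone gave 6 and 9, and 18 and 4. Library size scaling moved the median of all genes from 0.03 to 0.18 and from 0.09 to 0.29 in these comparisons, and from −0.03 to −0.15 for R1881 in LNCaP:C4-2 with siSCR.

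The GC content of the mitotic genes' exons moved with several of these values. It ran from 34.7% (CENPE) to 59.4% (CDC25B), with a median of 53.5% in the 9 genes called in LNCaP:C4-2 with siSCR and 41.8% in the other 34. Across the 43 genes, which are not independent replicates and share all libraries, Pearson's r between GC content and log2 fold change of R1881 was −0.70 with siSCR and 0.37 with siMETTL3. After an offset for GC content fitted per library over all genes it was −0.50 and −0.14. For the knockdown it was −0.02 in LNCaP:C4-2 in vehicle, 0.85 with R1881, 0.76 in 22Rv1 in vehicle and 0.77 with R1881, and after the offset −0.51, 0.16, 0.26 and 0.13. For the interaction in LNCaP:C4-2 it was 0.83, and 0.47 after the offset. With that offset 6 of the 9 remained called, BIRC5, CDC20 and PLK1 did not reach the fold threshold, at −0.58, −0.56 and −0.57, and PRC1 was added. AURKB had −0.81, ESPL1 −0.79 and TOP2A −0.69 with the offset. What part GC content has in these values beyond the offset was not tested.

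**Figure D5:**
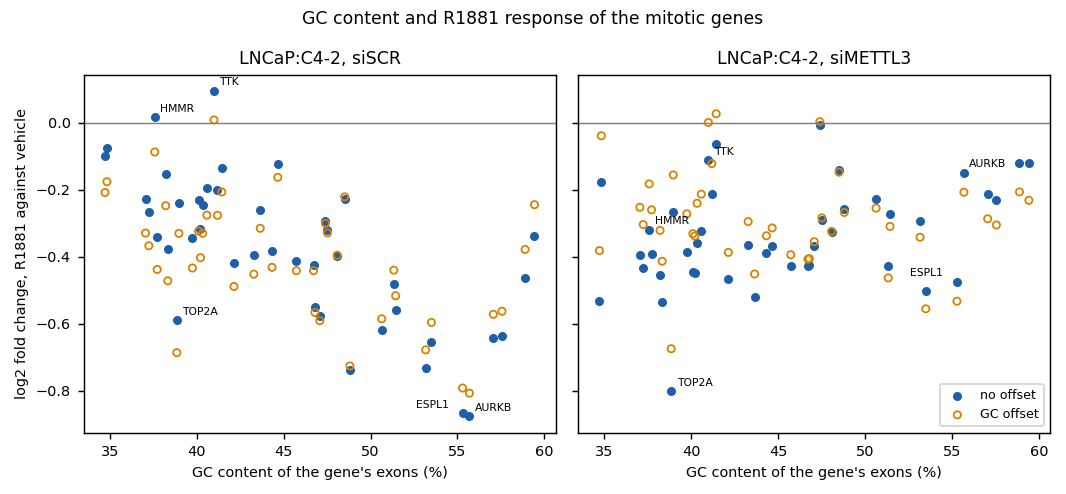
Log2 fold change of R1881 against vehicle in LNCaP:C4-2 (y axis) against the GC content of each mitotic gene's exons in % (x axis), with siSCR (left) and siMETTL3 (right), without (filled) and with (open) an offset for GC content. With siSCR the genes of high GC content such as AURKB and ESPL1 lie lowest together with TOP2A, and with siMETTL3 AURKB lies among the genes nearest to 0.

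Other genes of mitosis and G2/M control, 110 genes outside the 43, were taken from lists of kinetochore, spindle, anaphase-promoting complex, condensin and cohesin, and G2/M control genes. These lists and the S phase list below were also chosen with earlier results of these data known. With R1881 in LNCaP:C4-2 with siSCR 12 of the 110 were called lower and 2 higher, with a median of −0.30. Of all genes 7.72% were called lower and 7.39% higher. ZWINT, a kinetochore scaffold, had a log2 fold change of −0.90 (SE 0.18, edgeR adjusted p = 0.00142), KIF18B, a microtubule-depolymerising motor, −0.83 (SE 0.14, edgeR adjusted p = 0.000368), CDCA5, sororin, which protects cohesin, −0.80 (SE 0.15, edgeR adjusted p = 0.00138) and PKMYT1, the kinase that inhibits CDK1, −0.91 (SE 0.21, edgeR adjusted p = 0.00577). CENPN, which reads the centromeric nucleosome, went the other way, at 2.11 (SE 0.10, edgeR adjusted p = 4.29e-10) and with siMETTL3 at 2.16 (SE 0.10, edgeR adjusted p = 4.85e-10). ANAPC10, a subunit of the anaphase-promoting complex, was the other, at 0.62 (SE 0.16, edgeR adjusted p = 0.0112). With siMETTL3 7 of the 110 were called lower and 1 higher, against 5.54% and 5.09% of all genes. None of the 110 passed the interaction in LNCaP:C4-2, nor did any of all genes. In 22Rv1 none was called lower with either pool, where 1722 and 1660 of all 17865 genes were.

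Of 15 S phase genes, 10 were called lower with R1881 in LNCaP:C4-2 with siSCR, against 7.72% of all genes, with a median of −0.63. They were led by the helicase subunits MCM2, MCM3 and MCM5 at −0.86, −0.85 and −0.83 (edgeR adjusted p = 0.0013, 0.00032 and 0.0021). With siMETTL3 none of the 15 was called, against 5.54% of all genes called lower and 5.09% higher, and the median was −0.29. None of the 15 passed the interaction in LNCaP:C4-2 (lowest edgeR adjusted p = 0.346), nor did any of all genes. The counts for these and the preceding lists come from fits of all libraries, without the GC offset. In 22Rv1 with siSCR 1 was called higher, where 749 of all 17865 genes were, and the median was 0.17. This was CDC6, a replication licensing factor, at 0.60 (SE 0.09, edgeR adjusted p = 2.8e-05). With siMETTL3 in 22Rv1 none was called, against 13.5% of all genes, and the median was 0.26. The R1881 response of 12 of the 15 differed between the lines with siSCR and of 9 with siMETTL3, all towards higher in 22Rv1. Of all genes 7.78% and 8.45% differed in that direction.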

How the data were processed

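RNA-seq of 24 libraries (8 groups of 3) was analysed from fragment counts per gene, 1 deposited file per library. To make the counts, the authors trimmed reads with Trim Galore and cutadapt, checked them with FastQC, used STAR for alignment (GRCh38) and featureCounts 1.5.0 with the Ensembl 83 annotation for counting, without a strand option and leaving out multi-mapping reads. Samples were grouped by their GEO labels. Each line's 12 libraries were fitted with edgeR 4.0.16 (R 4.3.3), with TMM scaling, filterByExpr (minimum count 10, total 15) and the quasi-likelihood F test, and all 24 libraries together for comparisons between the lines. A gene was called at an adjusted p (Benjamini-Hochberg over all genes tested) under 0.05 and at least 1.5-fold, and for interactions and differences between lines on the adjusted p alone. SEs are the log2 fold change over the root of F. The fit was run on simulated counts with known changes. These held no library that stood apart and no shift with GC content, so they cannot show how the fit handles either. TPM used the exon length in the count files.

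The mitotic genes and other gene lists were chosen with earlier results of these data known. Named were the called genes (full statistics for up to 6 with the largest change), 9 well-known members, the highest and lowest by level, and genes that went against their role group. Genes outside this rule were named after their values were seen. Alternatives were DESeq2 1.42.0, other scalings, filters and thresholds, GC and length offsets, a replicate block, other sets of libraries and leaving out each library. Over 18 same-numbered pairs a line, the deviations of the libraries from their group means correlated at −0.0173 (LNCaP:C4-2) and −0.01 (22Rv1) on average. Single pairs ran from −0.337 to 0.195 and from −0.228 to 0.152. No pairing by number was seen, but averages near 0 cannot exclude shared cultures or batches.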

Additional observations from a re-analysis of the deposited data

Results flagged for a closer look

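The R1881 response of these genes differed between the lines by edgeR's test of the difference over all 24 libraries. With siSCR, the log2 difference, 22Rv1 minus LNCaP:C4-2, was 0.64 for CENPA, 0.63 for ESPL1, 0.55 for AURKB, 0.53 for CDCA8, 0.49 for KIF2C, 0.48 for CCNB1, 0.41 for AURKA, 0.40 for UBE2C and 0.37 for PRC1. With siMETTL3 it was 0.66 for TOP2A, 0.60 for KIF2C, 0.59 for CCNB1, 0.56 for NUF2, 0.56 for CENPA, 0.51 for CCNB2, 0.44 for UBE2C, 0.43 for CKS2, 0.38 for BUB3 and 0.31 for PRC1. Without both LNCaP:C4-2 libraries that stood apart, CCNB1 (0.27), AURKA (0.32), UBE2C (0.26) and PRC1 (0.26) no longer passed with siSCR, and NUF2 (0.39), CKS2 and BUB3 no longer passed with siMETTL3.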

How the results depend on the processing

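Counts of mitotic genes called are given first as reported. R1881 in LNCaP:C4-2 with siSCR called 9, 21 with no fold threshold, 0 with the 1.5-fold threshold inside the test and 6 to 12 when 1 library was left out. With siMETTL3 it called 1, 10 with no fold threshold, 0 with the threshold inside the test, 3 by library size alone, 1 to 5 with 1 library left out and 2 without both libraries that stood apart, an alternative chosen after seeing the data. Its interaction with siMETTL3 called 0, and 1 with no filter. The knockdown in LNCaP:C4-2 with R1881 called 0, 0 to 3 with 1 library left out and 3 without both. In 22Rv1 with no fold threshold the knockdown with R1881 called 4 and R1881 called 9 with siSCR and 10 with siMETTL3. The last called 1 by library size alone and 0 to 1 with 1 library left out. Between lines, 15 in vehicle became 27 with no fold threshold, and 14 with R1881 became 34 with none, 9 with the threshold inside the test and 22 by library size alone. The difference in R1881 response with siSCR, 9, became 3 at an adjusted p under 0.01, 14 by library size alone and 20 with the GC offset. The GC offset also raised the count over all genes, from 3266 to 5057. With 1 library left out 2 to 11 mitotic genes were called. With siMETTL3, 10 became 3 at 0.01, 4 by RLE, 6 with 10 counts in every library, 6 with the length offset and 1 to 12 with 1 library left out.

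METTL3 in LNCaP:C4-2 in vehicle (−0.61) was not called at 0.01 or with the threshold inside the test (both −0.61). Nor was it called with the GC offset (−0.57) or among 6 libraries (−0.61, edgeR adjusted p = 0.054). With 1 library left out it ran from −0.66 to −0.55. It did not pass the adjusted p without siSCR replicate 1, siSCR replicate 3 or siMETTL3 replicate 2 (edgeR adjusted p = 0.0982, 0.0671 and 0.0552). Without siMETTL3 replicate 3 it passed (edgeR adjusted p = 0.037) but fell short of 1.5-fold (−0.55). With R1881 (−0.57) it was called with no fold threshold (−0.57) and without both libraries (−0.65), and ran from −0.65 to −0.52. In 22Rv1 in vehicle it was not called with the threshold inside the test (−0.89). For R1881 in LNCaP:C4-2 with siSCR, TTK turned to −0.0177 and HMMR to −0.0976 by library size alone, HMMR to −0.087 with the GC offset and CDK1 to 0.0862 without both libraries. With 1 library left out they ran from −0.0777 to 0.355, −0.1005 to 0.227 and −0.156 to 0.0865. The replicate block gave 9 and 1 calls for R1881 in LNCaP:C4-2, and moved no count by over 1.5 times. No pairing of libraries by number was seen. The cause of these changes was not tested, and the summed level moved by less than 1 SD under every alternative.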
